A study of Arabidopsis thaliana with 4 samples.

Results

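Xyloglucan endotransglucosylase/hydrolase (XTH) genes encode secreted enzymes that cut xyloglucan, the main hemicellulose of the primary wall in Arabidopsis, and either rejoin the cut end to another xyloglucan chain or pass it to water. The family acts where walls are being loosened, laid down or reshaped, and many of its genes are known to respond to auxin, brassinosteroids, light or touch. The genes described here are the 6 whose probe sets are annotated to XTH16, XTH18, XTH19, XTH32, XTH33 and EXGT-A3 (also called XTH27), of 13356 genes with a named probe set on the array. The gene table used for names lists 33 XTH genes, of which 10 have a named probe set here. Signals below a floor of 102, the 40th percentile over all arrays, were raised to it before ratios were taken. All 6 genes were above this floor on at least 1 array, and 5 of them on all 4. The exception, XTH33, was above it on 2.

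Transcripts were measured on Affymetrix ATH1 arrays, each probe set being read as a linear signal, in whole 2-week-old Arabidopsis thaliana seedlings. The 4 genotypes were OE6, a transgenic line overexpressing DUF761-1 in Columbia-0; Col-0, the Columbia-0 wild type; duf761-1, a mutant of line RATM11-0975-1_H in the Nossen background; and NO, the Nossen wild type. Every genotype was raised on 1/2 MS medium with 2% sucrose, with days of 16 h light (100 µmol m-2 s-1) and 8 h darkness, at 22 °C. There was 1 array per genotype, so no value has a replicate, no test was possible and all comparisons are by size. The mutant and the overexpressor are 1 line each, and the promoter of the transgene and the number of plants per sample are not given in the sources used here. What DUF761-1 does is not stated in the labels, and no table used here names its gene, so its level was not read by name.

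Each array had a trimmed mean signal of 500, which the scaling fixed. The median signal differed by background, at 190 on OE6 and 190 on Col-0, against 168 on duf761-1 and 170 on NO. The floor was exceeded by 61.2% of non-control probe sets on OE6, 61.6% on Col-0, 58.3% on duf761-1 and 58.9% on NO. Control transcripts are read near both ends, by 2 sets of control probe sets, and their 3′/5′ ratio ranged from 0.754 to 0.887 in one set and from 1.14 to 1.38 in the other for GAPDH, and from 1.08 to 1.27 and from 2.58 to 2.72 for ubiquitin. For actin it was 2.06 on OE6 and 1.61 on Col-0, against 0.267 on duf761-1 and 0.279 on NO, in the first set. In the other it was 9.84 on OE6 and 7.52 on Col-0, against 1.49 on duf761-1 and 1.66 on NO. The actin ratio thus moved with the background. By smaller amounts, the ubiquitin ratio of both sets was also higher on both Columbia arrays than on both Nossen arrays. So was the GAPDH ratio of the other set, at 1.38 on OE6 and 1.29 on Col-0, against 1.19 on duf761-1 and 1.14 on NO. The GAPDH ratio of the first set did not follow the background. Whether RNA integrity differed between backgrounds, and its part in the differences below, was not tested. The tissue was checked against markers: the root beta-glucosidase gene PYK10 had a signal between 15882 and 16513, and the leaf genes LHCB4.1, SBPASE and RCA were each at 8384 or more on every array, so both root and shoot were present. A yardstick of noise within arrays came from 60 genes, each read by at least 2 probe sets that were above the floor on all 4 arrays. It was the scatter between the log2 ratios those probe sets gave. Its SD per probe set was 0.28 in the comparison of duf761-1 with NO, 0.24 in that of OE6 with Col-0 and 0.40 in that of Col-0 with NO. Signals below the floor, and variation from plant to plant or from one labelling to the next, are not part of it.

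The XTH genes had lower signals in the Columbia than in the Nossen seedlings. For 5 of the 6, every gene but XTH18, both Columbia arrays were below both Nossen arrays (4 with spike-in scaling, where XTH16 no longer was), where 29.8% of all 7994 genes above the floor showed that order and 36.5% the opposite one. Within the Nossen background, XTH18 and XTH19 were at least 2-fold lower in duf761-1 than in NO, while XTH16 and EXGT-A3 were 1.36-fold and 1.39-fold higher. Within Columbia, none of the 6 was 2-fold apart between OE6 and Col-0, and XTH16 and EXGT-A3 were again the furthest on the higher side.

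**Figure D1:**
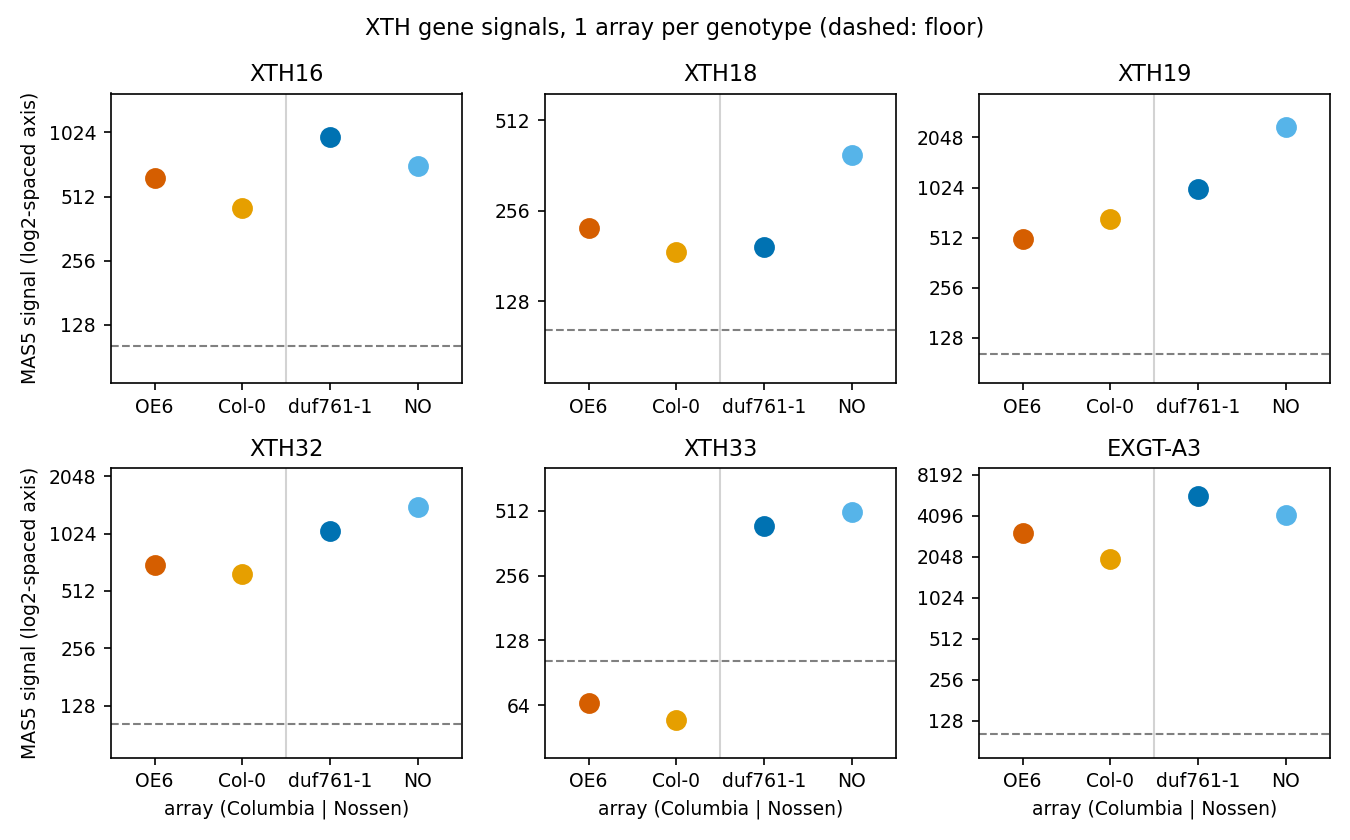
Signal of each XTH gene (vertical axis, log2-spaced) on the 4 arrays, 1 point per array, with the Columbia arrays (OE6, Col-0) left of the grey line, the Nossen arrays (duf761-1, NO) right of it and the floor of 102 dashed. The Columbia points lie below the Nossen points in every panel but that of XTH18, where OE6 lies above duf761-1, and the XTH33 points of Columbia lie below the floor.

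XTH18 and XTH19 are root-expressed members of the family that act in growing root cells. Their loci, AT4G30280 and AT4G30290, are direct neighbours in the gene table, and XTH24 lies next to XTH18 on the other side. The proteins are close paralogs, so probes of one gene may also read the other, and their values are uncertain as separate measurements. Neither probe set carries a suffix that marks possible cross-hybridisation, so leaving out such probe sets kept both. XTH24 has no named probe set here.

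XTH19 had a signal of 504 on OE6, 659 on Col-0, 997 on duf761-1 and 2354 on NO. The NO array was far above the other 3, and the span from the highest to the lowest array was 4.67-fold. In duf761-1 the signal was 2.36-fold lower than in NO, a log2 ratio of -1.24, which is 4.41 times the yardstick SD. Only 4 of the 7994 genes, XTH19 included, had a ratio as low or lower in that comparison. Between OE6 and Col-0 the log2 ratio of XTH19 was -0.39, or 1.61 yardstick SDs, and XTH19 was the 1 gene of the 6 with a ratio below 0 there. Between Col-0 and NO it was -1.84, a 3.57-fold lower signal in Col-0. In the order NO, duf761-1, Col-0, OE6, the step between duf761-1 and NO exceeded 2 yardstick SDs and the other steps did not.

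XTH18 read 224 on OE6, 186 on Col-0, 194 on duf761-1 and 392 on NO. Only NO stood apart, and the other 3 arrays lay close together. The log2 ratio was -1.02 for duf761-1 over NO, which is 2.03-fold lower and 3.63 yardstick SDs, and 17 of the 7994 genes, XTH18 included, had a ratio as low or lower. For OE6 over Col-0 it was 0.27, opposite in sign to that of XTH19, at 1.12 yardstick SDs. For Col-0 over NO it was -1.08. The value for duf761-1 over NO lies at the edge of the 2-fold limit: it was -0.98 with quantile normalization, -0.96 when arrays were scaled on 18 spike-in probe sets, -0.74 with a pseudocount replacing the floor and -0.45 when the floor was set at the 60th percentile.

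NO is the denominator of both duf761-1 over NO and Col-0 over NO, so these values of XTH18 and XTH19 are not independent, and a high NO array cannot be told apart from a difference between genotypes. In whole seedlings fewer root cells and less transcript per root cell cannot be told apart either. Of the root markers listed, 3 had a named probe set, and none of these was listed at 0. Summed over them, the signal came to 16998 on OE6, 16313 on Col-0, 16282 on duf761-1 and 16876 on NO. PYK10, which makes up most of it, had log2 ratios of -0.04 for duf761-1 over NO and -0.04 for Col-0 over NO. The root hair expansin gene EXPA18 had 290 on OE6, 188 on Col-0, 256 on duf761-1 and 426 on NO, with log2 ratios of -0.74 for duf761-1 over NO and -1.18 for Col-0 over NO. EXPA7, also of root hairs, went the other way, at 196 on OE6, 155 on Col-0 and 145 on duf761-1, and below the floor on NO at 79.1.

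XTH16 and EXGT-A3 had the same order of arrays as each other. EXGT-A3 is known from the development of leaf veins, where it acts in the differentiation of water-conducting cells. EXGT-A3 read 3023 on OE6, 1980 on Col-0, 5708 on duf761-1 and 4121 on NO. Each altered line was thus above its own wild type, and both Columbia arrays were below both Nossen arrays. The log2 ratio was 0.61 for OE6 over Col-0 (1.53-fold, 2.55 yardstick SDs) and 0.47 for duf761-1 over NO (1.39-fold, 1.67 yardstick SDs). These comparisons share no array, and neither reached 2-fold. In OE6 over Col-0, 2.38% of the measured genes had a ratio as high or higher, and in duf761-1 over NO 6.37% had.

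XTH16 showed the same order of arrays, with 625 on OE6, 452 on Col-0, 975 on duf761-1 and 716 on NO. Its log2 ratio was 0.47 for OE6 over Col-0 and 0.45 for duf761-1 over NO, which are 1.94 and 1.59 yardstick SDs. None of the steps between neighbours in that order exceeded 2 yardstick SDs, and for EXGT-A3 only that between OE6 and Col-0 did. Between Col-0 and NO the ratio of XTH16 was -0.66, and it was the 1 gene of the 6 that was not 2-fold lower in Col-0. EXGT-A3 had a ratio of -1.06 there. The mutant and the overexpressor thus lay on the same side of their wild types for both genes. The share of all genes for which they did so was not counted, so the shared side is only a description of these arrays.

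XTH32 belongs, with XTH31, to the subgroup of the family predicted to cut xyloglucan without rejoining it. It had 704 on OE6, 629 on Col-0, 1054 on duf761-1 and 1411 on NO. The Columbia arrays lay together and below the Nossen arrays. The log2 ratio was -0.42 in duf761-1 over NO, 0.16 in OE6 over Col-0 and -1.17 in Col-0 over NO, and only the last, 2.24-fold lower in Col-0, passed 2-fold. The steps between neighbouring arrays were each within 2 yardstick SDs.

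XTH33 stood furthest apart between backgrounds. Its protein differs from the typical XTH in being found at the plasma membrane as well as in the wall. XTH33 read 65.8 on OE6 and 54.6 on Col-0, both below the floor, against 435 on duf761-1 and 506 on NO. XTH33 was therefore at least 4.95-fold lower in Col-0 than in NO, and 41 of the 7994 genes had a log2 ratio as low as its bound of -2.31 or lower. OE6 was likewise at least 4.26-fold below duf761-1. With both Columbia arrays at the floor, OE6 over Col-0 has no ratio, and duf761-1 over NO was -0.22, under 1 yardstick SD. The bound depends on the floor. With the floor at the 25th percentile all 4 signals were above it and the log2 ratio for Col-0 over NO was -3.21, while at the 60th the bound was -0.81, which leaves a 2-fold difference undecided.

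In counts, 2 of the 6 XTH genes were at least 2-fold lower in duf761-1 than in NO and 0 were higher, where 0.225% of all 7994 genes were lower and 0.663% higher, 0.888% in all. The median log2 ratio of the 6 was -0.32, against 0.00 for all genes. In OE6 over Col-0, 0 of the 6 were 2-fold apart, against 0.951% of all genes, and the median of the 5 genes with a ratio was 0.27, against -0.01 for all genes. In Col-0 over NO, 5 of the 6 were at least 2-fold lower and 0 higher, against 5.09% of all genes lower and 9.02% higher, and their median was -1.12, against 0.04. XTH18 and XTH19 do not count as separate evidence in these numbers, and the genes were chosen with earlier results of these data known.

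**Figure D2:**
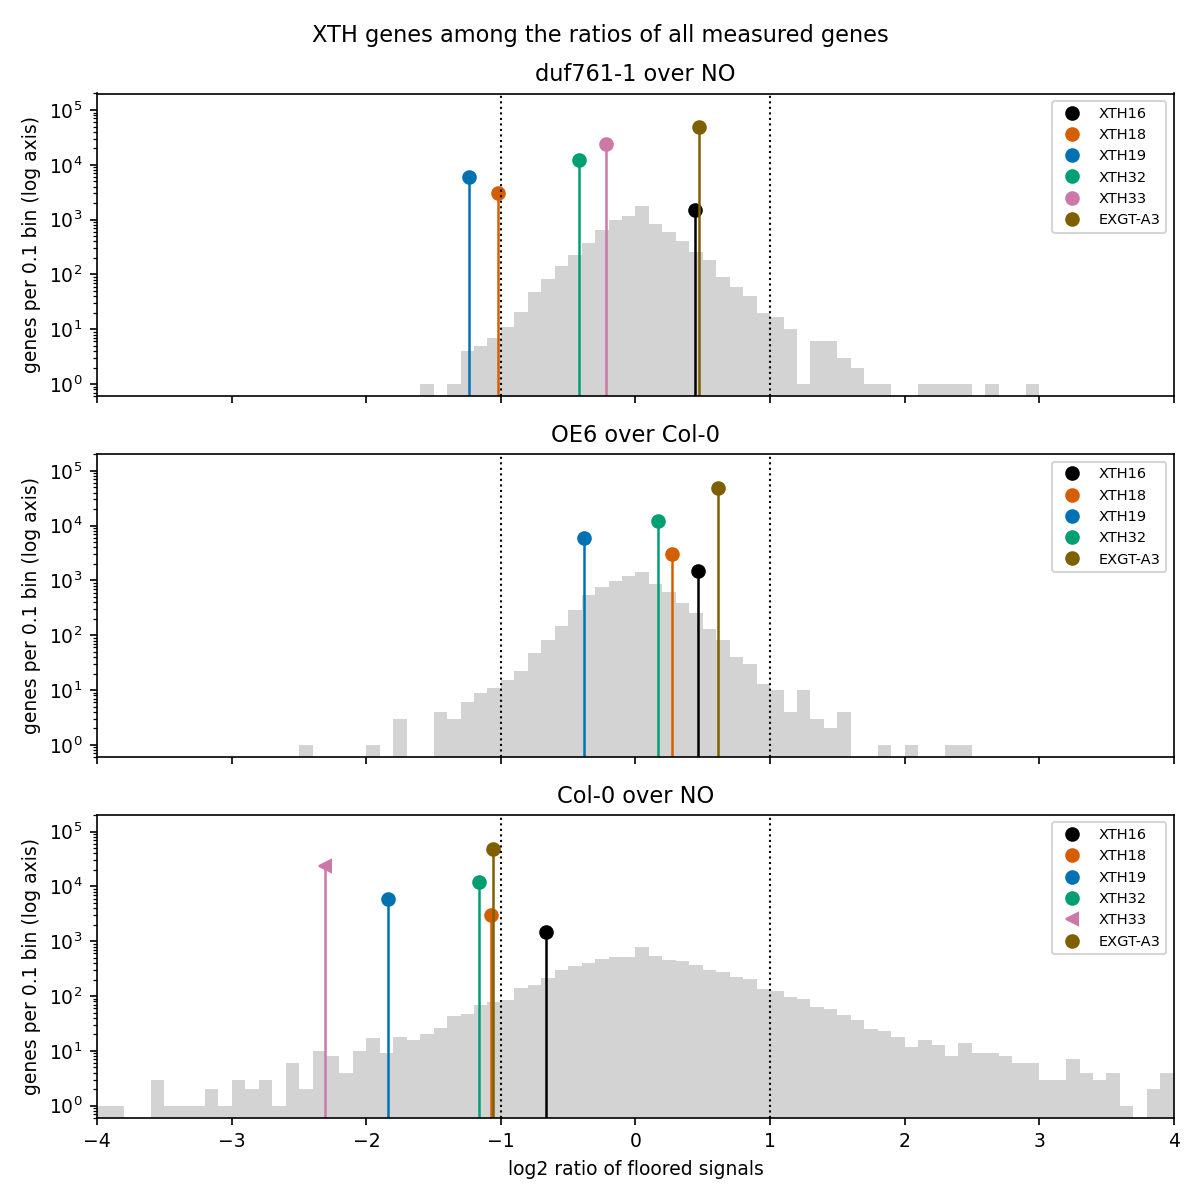
Number of genes per bin of log2 ratio (grey, log axis, 7994 genes, axis ends at -4 and 4) in the 3 comparisons, with the ratio of each XTH gene as a coloured stem whose height has no meaning, an arrowhead for a bound and dotted lines at 2-fold. XTH18 and XTH19 lie past 2-fold on the lower side in duf761-1 over NO, no XTH gene does in OE6 over Col-0, and 5 of 6 do in Col-0 over NO.

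The difference between backgrounds depends on how arrays are scaled. Scaling on the spike-in probe sets moved the median log2 ratio of all genes in Col-0 over NO by 0.37, to 0.41, and left 2 of the 6 XTH genes at least 2-fold lower, XTH19 at -1.43 and XTH33 at -2.11 or lower. EXGT-A3 was then at -0.65, XTH18 at -0.67 and XTH32 at -0.76. All 6 were below the median of all genes in Col-0 over NO under each of the 10 alternatives, and 5 of the 6 had both Columbia arrays below both Nossen arrays under 8 of the 9 in which that was counted. The exception was spike-in scaling, with 4 of 6, where XTH16 had a log2 ratio of -0.13 for NO, its lower Nossen array, over OE6. The probes of the array follow the Columbia sequence. Of the 7 green tissue markers, 3 had a named probe set, and none of these was near 0. Their summed signals were also lower in Columbia, with 44449 on OE6, 44185 on Col-0, 56616 on duf761-1 and 58836 on NO. For Col-0 over NO the log2 ratio was -0.18 for LHCB4.1, -0.63 for SBPASE and -0.52 for RCA, against a yardstick SD of 0.40. The part of these markers in the result was not tested.

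**Figure D3:**
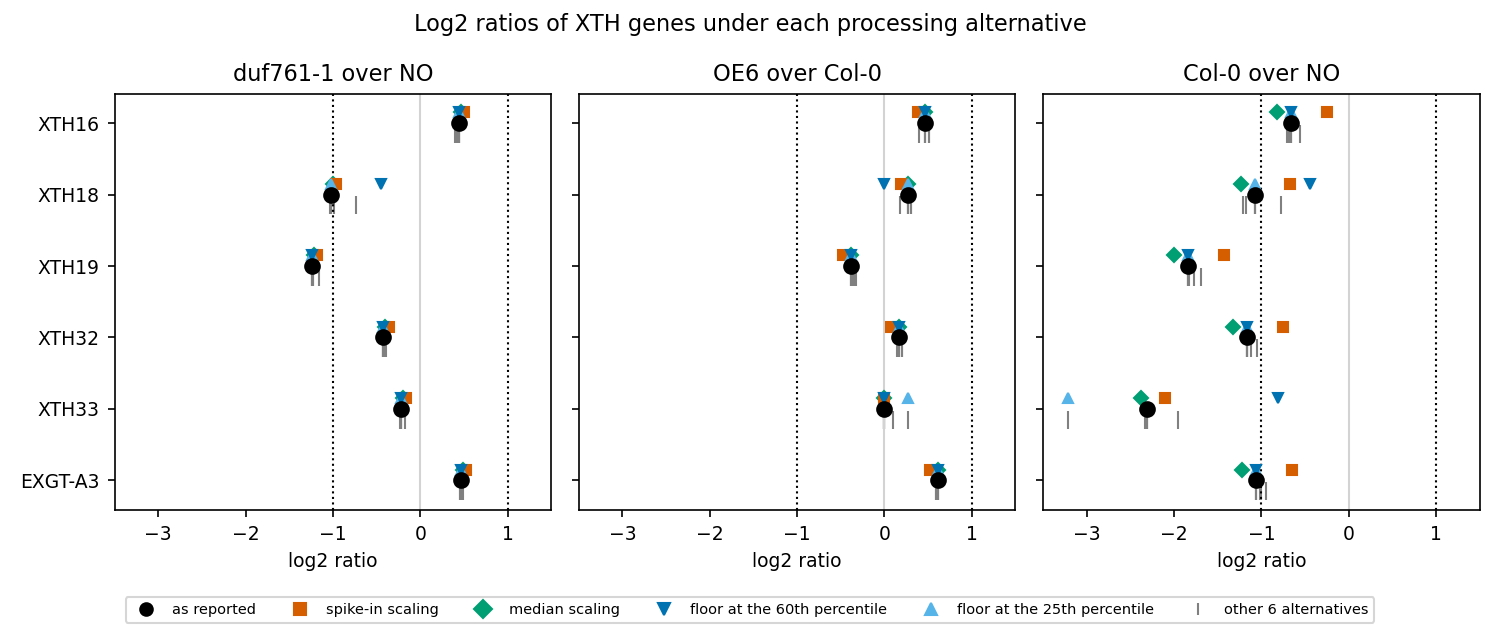
Log2 ratio of each XTH gene (rows) in the 3 comparisons as reported (black) and under the 10 processing alternatives, with dotted lines at 2-fold. XTH19 stays past 2-fold in duf761-1 over NO at every mark, and the spike-in marks lie to the right of the reported values in Col-0 over NO.

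The other members of the family with a named probe set were close to or below the floor. XTH26, a root hair member, was above it on NO alone, at 151, with 64.7 on OE6, 15.1 on Col-0 and 99.1 on duf761-1. XTH20, the relative of XTH18 and XTH19, was above it on OE6 alone, at 113, with 47.0 on Col-0, 73.7 on duf761-1 and 99.8 on NO. XTH21 and XTH29 were below it on all 4 arrays. These signals are too low for ratios, so no direction can be given for the rest of the family.

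Genes of xyloglucan synthesis were set beside the XTH genes. Of 23 listed, probe sets were named for 4, all of the CSLC group, whose products make the glucan backbone of xyloglucan, and each was above the floor on at least 1 array. None was 2-fold apart in duf761-1 over NO, OE6 over Col-0 or Col-0 over NO, where 0.888%, 0.951% and 14.1% of all genes were. CSLC04, the main backbone synthase gene, had 1062 on OE6, 988 on Col-0, 1079 on duf761-1 and 1501 on NO. As for XTH18, NO was the high array and the other 3 lay together. In duf761-1 over NO the median log2 ratio of the 4 was -0.40, with CSLC5 at -0.49 and CSLC6 at -0.33. The median was -0.09 between OE6 and Col-0, where CSLC12, at the floor on both arrays, was counted as 0. Between Col-0 and NO the median was -0.47. CSLC12 was above the floor on NO alone, at 119. None of the 14 listed enzymes that trim xyloglucan had a named probe set.

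Expansins loosen walls without cutting the polysaccharide. Of 13 above the floor, 3 had both Columbia arrays below both Nossen arrays and 5 had both above, numbers near the shares of 29.8% and 36.5% among all genes. In duf761-1 over NO, 0 of the 13 were 2-fold apart, against 0.888% of all genes, and their median log2 ratio was -0.17. In Col-0 over NO their median was -0.34, with 8 of the 13 below 0 and 5 above, and 2 were at least 2-fold lower and 1 higher, where 5.09% and 9.02% of all genes were. EXLB1, an expansin-like gene, was the higher one, with 332 on OE6, 590 on Col-0, 137 on duf761-1 and 133 on NO. EXLA2 went with XTH33, with 86.7 on OE6 and 62.5 on Col-0, both below the floor, against 232 on duf761-1 and 243 on NO. EXLA1 was at least 2-fold higher in OE6, at 403 against 141 in Col-0, a log2 ratio of 1.52, where no XTH gene was. COB, the 1 measured gene of cellulose deposition, had a log2 ratio of -0.08 in duf761-1 over NO, of 0.07 in OE6 over Col-0 and of -0.38 in Col-0 over NO.

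Auxin-responsive genes were listed because XTH19 is known to respond to auxin. Of 54 listed, a probe set was named for 13, of which 5 passed the floor, and 3 of these 5 had both Columbia arrays below both Nossen arrays, against 29.8% of all genes. GH3.3, which encodes an enzyme that joins auxin to amino acids, had 147 on OE6, 107 on Col-0, 138 on duf761-1 and 317 on NO. It was the 1 gene of the 5 at least 2-fold apart in duf761-1 over NO, against 0.888% of all genes, with a log2 ratio of -1.20. Its order of arrays was close to that of XTH18, with NO alone standing high. WES1, another gene of this enzyme group, had 873 on OE6, 938 on Col-0, 1881 on duf761-1 and 2414 on NO. HAT2, a homeobox gene, had 485, 570, 610 and 866 on OE6, Col-0, duf761-1 and NO. The Aux/IAA gene IAA18 differed in being highest on duf761-1, at 1414 against 1232 on NO, with 826 on OE6 and 911 on Col-0. The remaining gene of the 5 went the other way, being above the floor on Col-0 alone, at 123.

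Other lists held few measured genes. BRH1, the 1 measured gene of the brassinosteroid list, had a log2 ratio of -0.77 in duf761-1 over NO, of -0.36 in OE6 over Col-0 and of 0.60 in Col-0 over NO. CML23, a calmodulin-like gene and the 1 measured gene of the touch list, had 349 on OE6 and 144 on Col-0 and was below the floor on both Nossen arrays. ATPMEPCRB, a pectin methylesterase gene, had 278 on OE6, 247 on duf761-1 and 314 on NO, and was below the floor on Col-0 at 75.1. PME61, the other measured gene of the pectin methylesterase list, was above the floor on Col-0 alone, at 137. TCH4, the touch-induced XTH gene, has no named probe set here.

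**Figure D4:**
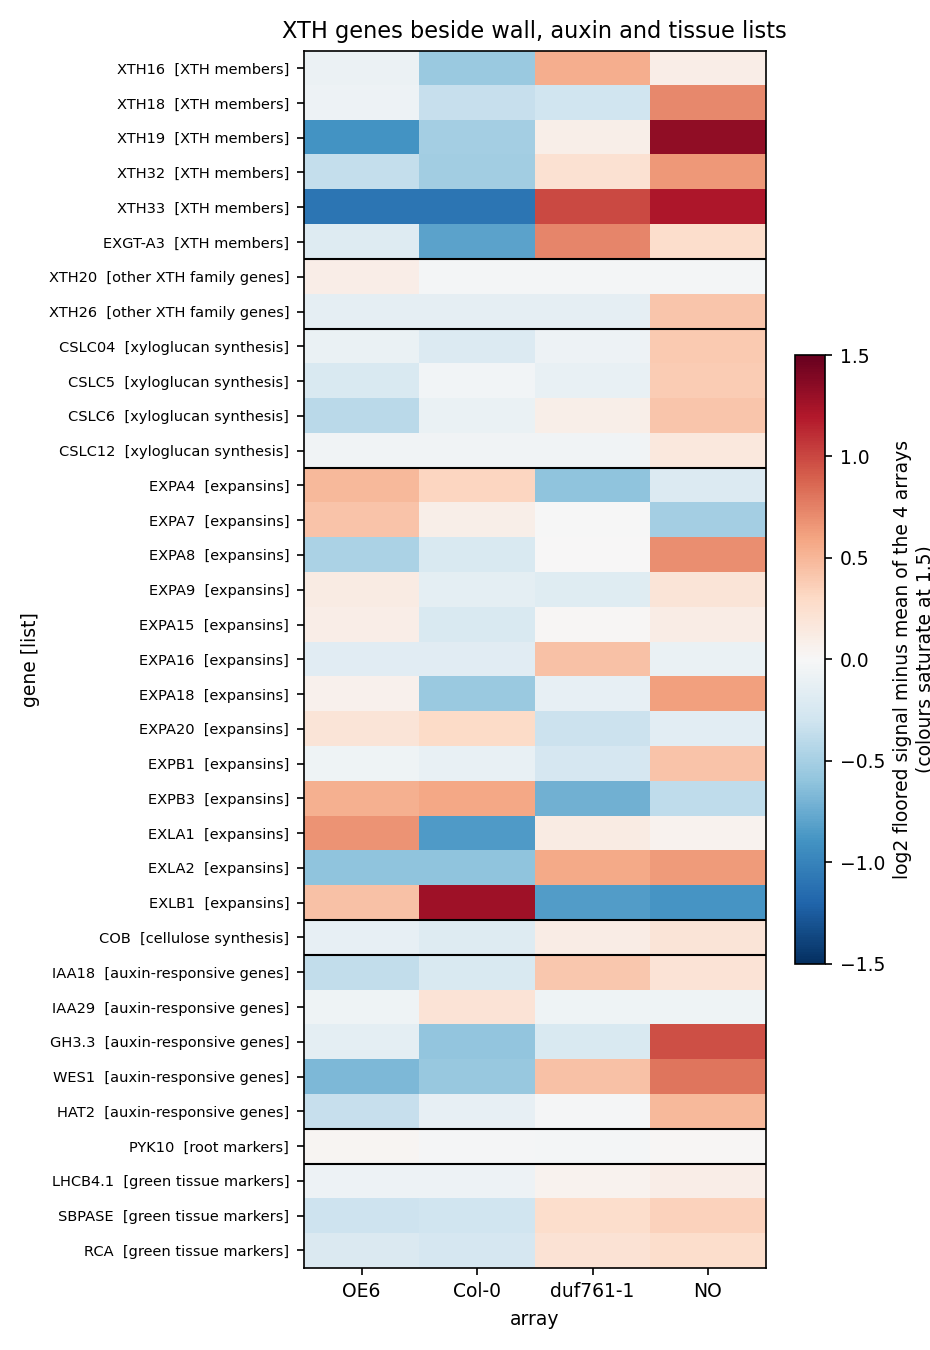
Log2 floored signal of each gene minus its mean over the 4 arrays (colour, red above and blue below the mean), for the 6 XTH genes and for measured genes of the wall, auxin and tissue lists, with arrays in columns. The XTH genes are above their mean on NO and, but for XTH18, on duf761-1. XTH16 on NO, at 0.10, and XTH19 on duf761-1, at 0.09, are close to it. The CSLC genes and GH3.3 are red mainly on NO, and PYK10 is near 0 throughout.

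Likeness of pattern was measured as the Euclidean distance between log2 floored signals of the 4 arrays, each gene centred on its own mean. The 1158 genes with a symbol above the floor were used, and signals below the floor count as equal. For XTH32 the nearest gene was DRT100, a leucine-rich repeat protein gene, at a distance of 0.10, with 2245 on OE6, 1987 on Col-0, 3195 on duf761-1 and 4718 on NO. GH3.17, an auxin-conjugating enzyme gene, at 0.17, and the signalling peptide gene CLE27, also at 0.17, followed. CLE27 was below the floor on OE6, at 69.5, and on Col-0, at 88.5. For XTH33 the nearest gene was GIS, a trichome regulator gene, at 0.15. It had 96.3 on OE6, below the floor, with 112 on Col-0, 494 on duf761-1 and 517 on NO. CSLA03, a gene of the glucomannan synthase group, came next at 0.35 and SAMTL at 0.38.

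For EXGT-A3 the nearest was the tetraspanin gene TET10, at 0.16, with 248 on OE6, 179 on Col-0, 534 on duf761-1 and 388 on NO, then IMP4 at 0.29 and CHB3 at 0.30. XTH16 was the 7th nearest to EXGT-A3 of 1157, at a distance of 0.35, and was the nearest of the other 5 XTH genes. In the other direction, EXGT-A3 was the 24th nearest to XTH16. XTH16 itself was nearest to ARPN, a plantacyanin gene just below the floor on Col-0, at 0.21, then to Phox3 at 0.24 and LSH9 at 0.26. The genes nearest to XTH18 were BGLU19 at 0.20, CYP84A4 at 0.22 and the tubulin gene TUB1 at 0.30. BGLU19 was above the floor on NO alone, and CYP84A4 was below it on Col-0. For XTH19 no gene came near: the nearest, UGT72B3, was at 0.63, with WES1 at 0.68 and ASPGB1 at 0.70. XTH18 was only the 78th nearest to XTH19, at 1.09, although both were highest on NO. The highest array was 4.67-fold above the lowest for XTH19 and 2.11-fold for XTH18. With 4 arrays many genes share an order by their number alone, so these distances are a description of the arrays.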

How the data were processed

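The deposited table gives a linear intensity for each probe set of the ATH1 array, computed by the authors with MAS5 according to the submitters' processing notes (which version was run is not given in the sources used here). Per the labels, 6 µg of total RNA was labelled for each array. The values show that each array was scaled to a common trimmed mean (2% at each end). No detection calls were used. Of 22746 non-control probe sets, 13513 carry 1 gene name in the platform annotation, and names were brought up to date with a TAIR10.1 gene table that holds 13286 of the 13356 genes. Coordinates are left out since no build is stated. Each of the 6 XTH genes has 1 probe set.

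All non-control signals were pooled, and values below their 40th percentile (102) were raised to it before the log2 step. Where 1 of the arrays compared is at this floor, the ratio is a bound. Genes were counted at 2-fold or more among the 7994 above the floor on at least 1 array. A gene with several probe sets took the one with the highest mean. The number of arrays limits the precision. The counting was tested on simulated arrays. The 6 genes and the 11 gene lists were chosen with earlier results of these data known. Named were the 6 genes, other XTH genes, up to 4 genes per list with the largest ratio, markers, and the 3 nearest genes in pattern. Alternatives were median, quantile, loess (span 0.4) and spike-in scaling, a lower (25th percentile) or higher (60th) floor, none at all, a pseudocount of the floor's size, the mean of probe sets, and leaving out probe sets that may cross-hybridise. Python 3.11.15, numpy 2.4.6, pandas 2.3.3 and statsmodels 0.14.6 were used.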

Additional observations from a re-analysis of the deposited data

Results flagged for a closer look

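XTH18 had opposite signs for Columbia over Nossen in the altered lines and in the wild types: the log2 ratio was 0.21 for OE6 over duf761-1 and -1.08 for Col-0 over NO. The difference was not tested, since each genotype has 1 array, and the first value is 0.54 of its yardstick SD of 0.40. The other 5 XTH genes were lower in Columbia in both pairs.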

How the results depend on the processing

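Of 180 ratios of the 6 XTH genes under the 10 alternatives, 176 kept the sign of the reported value. The other 4 were in OE6 over Col-0: XTH18 was 0 with the floor at the 60th percentile, and XTH33, counted as 0 as reported, was above 0 under 3 alternatives that lower or remove the floor, at up to 0.27. In all, 167 moved by less than the yardstick SD. XTH19 was at least 2-fold lower in duf761-1 than in NO under all 10, with log2 ratios from -1.24 to -1.16. XTH genes at least 2-fold apart in duf761-1 over NO numbered 1 under quantile normalization, 1 under spike-in scaling, 1 with the pseudocount and 1 with the floor at the 60th percentile, against 2 as reported. In Col-0 over NO they numbered 2 under spike-in scaling, 3 with the floor at the 60th percentile, 4 under loess and 4 with the pseudocount, against 5. In OE6 over Col-0 they numbered 0 under every alternative.

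For duf761-1 over NO, 71 genes were 2-fold apart as reported, 269 with the floor at the 25th percentile, 30 at the 60th, 288 with no floor and 31 with the pseudocount. For OE6 over Col-0 these were 76, 227, 25, 185 and 30. For Col-0 over NO they were 1128, 1698, 616, 1538 and 756, and 1654 under spike-in scaling. The share of higher genes in Col-0 over NO was 63.9% as reported, 89.2% under spike-in scaling and 49.5% under median scaling, in duf761-1 over NO 74.6% as reported and 85.5% under spike-in scaling, and in OE6 over Col-0 50.0% and 36.5%. A higher floor hides low signals by construction; the cause of the other shifts was not tested. No paired analysis was possible because each genotype has 1 array. Low signal limits what can be said of XTH18, XTH20, XTH26 and, in Columbia, XTH33.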
